A study of Mus musculus with 30 samples.

Results

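Untreated tibialis anterior, the fast muscle at the front of the mouse shin, was described from 11 of the 30 RNA-seq libraries of the study. They were chosen by their labels alone: 3 libraries from mice 6 months old, 4 labelled as controls of a dexamethasone experiment and 4 labelled as controls of an experiment with LLC cancer (Lewis lung carcinoma, a transplantable mouse tumour). All came from male C57BL/6J mice, and the labels name no transgene, knockout or agent for any of them. For the dexamethasone controls and the LLC controls the labels give neither an age nor whether a vehicle or a mock injection was used. The other 19 libraries, from old, dexamethasone-treated, LLC cancer and siRNA-treated muscle, were not used.

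Mouse tibialis anterior is built mostly of fast glycolytic fibres, whose contractile speed follows the myosin heavy chain they make: Myh4 encodes the fastest (IIB) isoform, Myh1 the IIX, Myh2 the IIA and Myh7 the slow isoform. Fibres share the tissue with fibroblast-like progenitors that lay down matrix, with endothelial and mural cells of the vessels, macrophages, Schwann cells and satellite cells, and RNA of all of them enters a bulk library. Values are TPM: reads per length of each gene, scaled so that a library sums to 1000000, which lets levels be compared between genes of a library. Because the sum is fixed, a class of genes that takes less of it raises all others.

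Depth differed between the groups. In units of 1000000, reads recovered from the steps of the low values came to 22.0 to 25.3 in the 6-month libraries, 35.0 to 39.8 in the dexamethasone controls and 31.6 to 34.5 in the LLC controls. A count of 3 reads on a gene 2 kb long corresponded to 0.0809 to 0.0944, 0.0512 to 0.0614 and 0.0589 to 0.0641 TPM, and 9740 to 10383, 11523 to 11736 and 10631 to 10955 genes reached 1 TPM. The female-specific Xist stayed at or below 0.0206 TPM in all 11 libraries and the Y-linked Ddx3y lay between 12.8 and 35.1 TPM. Krt5 and Krt14, keratins of the epidermis, were listed at 0 in every library. They are 2 of 5 epidermis markers, which together summed to 0.927 to 2.25 TPM per library. Of the 5, 1 reached 1 TPM in 3 or more libraries. Ubr4, a ubiquitin ligase that the labels' protocol names in connection with a knockout line sequenced elsewhere, lay between 11.1 and 20.8 TPM and did not pass the test across groups (adjusted p = 0.712).

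A few genes made up most of the RNA. On the average of the group means, 13 genes accounted for 50% of all TPM, 112 genes for 75% and 1189 genes for 90%, and 60 genes reached 1000 TPM. Single libraries needed 10 to 16 genes for the first of these shares. The order at the top was nearly the same everywhere: 9 genes stood in the top 10, and 23 in the top 25, of all 11 libraries, and 9522 genes were at 1 TPM or more in all of them.

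Transcripts of the mitochondrial genome led. They took 48.0%, 51.2% and 52.5% of TPM in the 6-month libraries, 50.7%, 50.2%, 47.7% and 46.3% in the dexamethasone controls, and 41.7%, 46.9%, 48.7% and 46.5% in the LLC controls. The groups overlapped, and the lowest library was LLC control 1. The gene mt-Co1, which encodes the catalytic subunit of cytochrome oxidase, ranked first in all 11 libraries, with a mean of 84855 TPM (8.49% of all TPM), followed by mt-Co3 at 69409 TPM, mt-Co2 at 65240 TPM and the ATP synthase subunit mt-Atp6 at 53670 TPM.

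Among nuclear genes the sarcomere of the fast fibre led. Acta1, skeletal muscle actin and the most abundant nuclear transcript, was at 30769, 26227 and 28093 TPM in the 6-month libraries, 25781, 25240.4, 29772 and 30350.2 in the dexamethasone controls and 31654, 30648, 26254 and 27687 in the LLC controls. Its groups overlapped (adjusted p across groups = 0.804). After it came, as means of the group means in TPM, fast troponin T (Tnnt3, 18835), fast troponin C (Tnnc2, 16220), the calcium buffer parvalbumin (Pvalb, 14128), the fast regulatory light chain (Mylpf, 13995) and the fast calcium pump of the sarcoplasmic reticulum (Atp2a1, 11483). Creatine kinase (Ckm) stood at 10763 TPM, Myh4 at 9569 TPM, the essential light chain Myl1 at 7760 TPM and fast troponin I (Tnni2) at 7680 TPM. The glycolytic enzymes Aldoa (6723 TPM), Eno3 (5894 TPM) and Gapdh (2791 TPM) and the oxygen store myoglobin (Mb, 5545 TPM) were in the same range.

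**Figure D1:**
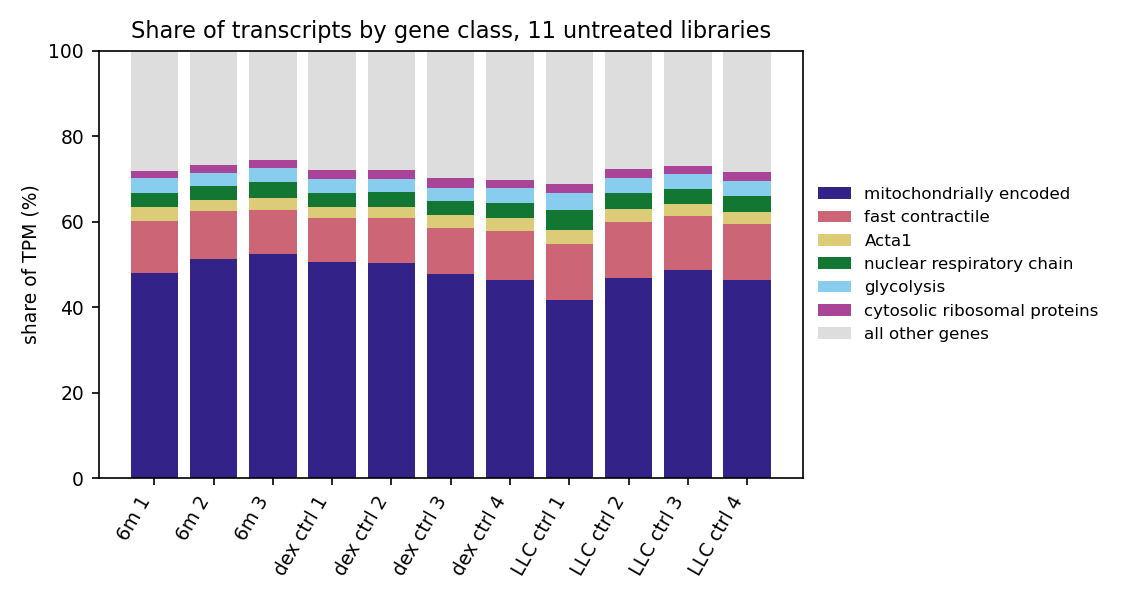
Share of TPM (%) taken by each gene class in each of the 11 libraries (6m: 6-month; dex ctrl and LLC ctrl: controls of the dexamethasone and LLC experiments). Mitochondrially encoded transcripts take between 41.7% and 52.5% of every library, and the smallest share is in LLC control 1.

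By class, the 15 fast contractile genes took 10.2% to 13.2% of TPM, and all 4 LLC controls (12.7% to 13.2%) lay above the other 7 libraries (10.2% to 12.3%). As a share of nuclear TPM, without the mitochondrial transcripts, LLC control 1 (22.6%) lay below 6-month libraries 1 (23.6%) and 2 (22.97%). The 18 genes of glycolysis and glycogen breakdown took 3.06% to 4.03% and the 81 nuclear genes of the respiratory chain 3.24% to 4.78%. Cytosolic ribosomal proteins (82 genes) took 1.76% to 1.90% in the 6-month group and 1.95% to 2.31% in both other groups. As a share of nuclear TPM these groups overlapped, with 3.38% to 3.999% against 3.64% to 4.42%. In LLC control 1, which had the lowest mitochondrial share, glycolysis, the nuclear respiratory chain and fatty acid oxidation (0.400%, against 0.279% to 0.287% in the other LLC controls) all took their highest share of any library. Of nuclear TPM, glycolysis (6.90%) and the respiratory chain (8.19%) were still highest there, but fatty acid oxidation (0.686%) was lower than in 6-month library 3 (0.766%).

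The make-up of the fibres, read from the myosin heavy chains, varied more between libraries of a group than between group means. Myh4 made up 79.0%, 79.95% and 65.3% of the adult heavy chain TPM (Myh4, Myh1, Myh2 and Myh7 together) in the 6-month libraries, 73.1%, 72.7%, 75.7% and 76.2% in the dexamethasone controls, and 65.3%, 78.1%, 79.1% and 76.4% in the LLC controls. The group means were 74.8% ± 8.19 (SD, n = 3), 74.4% ± 1.76 (SD, n = 4) and 74.7% ± 6.40 (SD, n = 4). An exact permutation test of the F statistic over all 11550 arrangements of the libraries gave p = 0.997 (adjusted over 4 isoforms, 0.997), where the smallest p the design allows is 0.000173, since swapping the 2 groups of 4 leaves F the same.

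The 6-month library 3 and LLC control 1 had the lowest Myh4 shares and the highest Myh1 shares, 32.8% and 33.6%, against 19.1% to 25.9% in the other 9 libraries. Myh2 took 0.377% to 1.84% of the adult heavy chain TPM (exact permutation p = 0.235, adjusted 0.942) and for Myh1 the exact permutation p was 0.996 (adjusted 0.997). Slow Myh7 was at 0.00286% to 0.0208% in 10 libraries and at 0.0732% in LLC control 3. That library, with 9.18 TPM of Myh7, also held the most of the slow light chain Myl2 (13.2 TPM, against 0.484 to 7.35 TPM elsewhere).

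**Figure D2:**
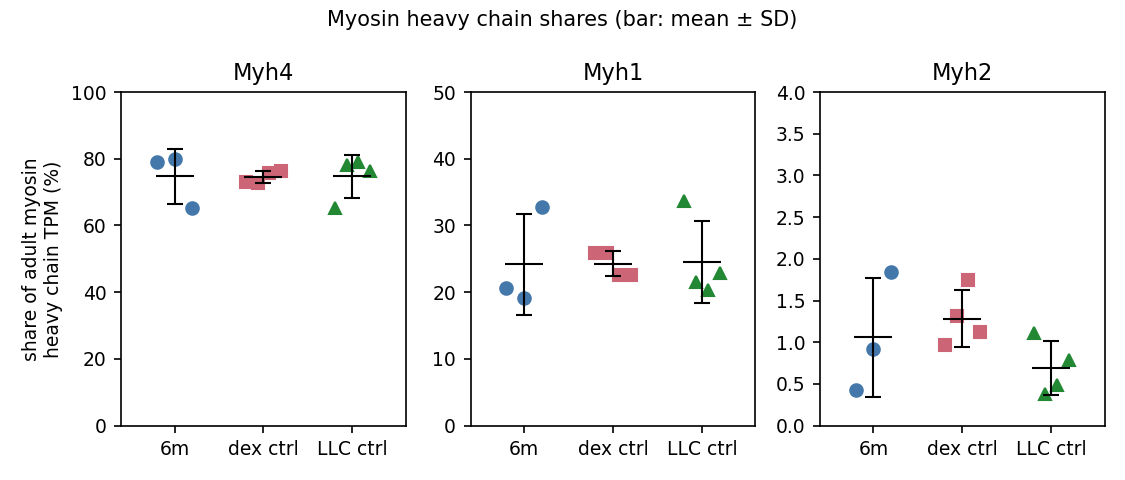
Share of the adult myosin heavy chain TPM (%) taken by Myh4, Myh1 and Myh2, with 1 point per library and the group mean ± SD as bars. The 6-month library 3 and LLC control 1 stand apart from their groups with Myh4 at 65.3%, while the group means of Myh4 lie between 74.4% and 74.8%.

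Myh4 and Myh1 lie next to each other on chromosome 11 and are the heavy chains the tissue uses most, so the DNA just before their starts is shown, taken from the RefSeq promoter table (GRCm38.p6, the assembly of mm10). The 80 bases before each start hold the word TATAAA, in capitals, beginning 31 bases before the start of Myh4 and 32 before that of Myh1.
Myh4, chr11:67237732-67237811, plus strand: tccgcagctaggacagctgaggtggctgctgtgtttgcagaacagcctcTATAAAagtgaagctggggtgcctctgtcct
Myh1, chr11:67200022-67200101, plus strand: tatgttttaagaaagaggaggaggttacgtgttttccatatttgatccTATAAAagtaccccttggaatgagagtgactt
TATAAA beginning 50 to 21 bases before the start was found in 2 of the 20 most abundant nuclear genes (of 25) that have an entry in the table, these same genes. It was found in 1.70% of the 8865 tested genes with an entry and in 2.32% of all 32851 entries, and a match is a description of the letters only.

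Most genes differed in level between the control groups. Of 11706 genes with at least 1 TPM in 3 or more libraries, 6620 (56.6%, or 60.5% after the rescaling described next) differed across the 3 groups (limma F test on log2(TPM + 1), adjusted p under 0.05), and 7287 (62.3%) at an unadjusted p under 0.05. Genes were higher in the dexamethasone controls than in the 6-month libraries in 6018 cases (51.4%) and lower in 400 (3.42%), together 54.8%. In the LLC controls 1797 genes (15.4%) were higher and 91 (0.777%) lower than in the 6-month libraries. Against the dexamethasone controls, 725 (6.19%) were higher and 4286 (36.6%) lower in the LLC controls, together 42.8%. Values of the 2 groups compared did not overlap, counting higher and lower genes in turn, in 52% and 4.09%, in 25.5% and 1.76%, and in 6.83% and 36.5% of the genes tested. The 3 comparisons share groups, so their counts are not independent.

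The whole scale was shifted between groups. The median gene differed by 0.28 (log2) between the dexamethasone controls and the 6-month libraries, by 0.14 between the LLC controls and the 6-month libraries and by -0.16 between the LLC and the dexamethasone controls. After scaling each library by the median of its ratios to the average library, these medians were 0.06, 0.03 and -0.05, and the counts became 4067 higher and 2498 lower (35.1% and 21.5%), 1173 higher and 551 lower (10.1% and 4.75%), and 2141 higher and 3522 lower (18.5% and 30.4%). The share of calls that were higher then moved from 93.8% to 61.9%, from 95.2% to 68.0% and from 14.5% to 37.8%. For this reason differences are given relative to the median gene of each comparison, as log2(TPM + 1) values that understate the change of low genes. The SE and the adjusted p beside them are those of the limma contrast before the median is subtracted. Experiment, depth and, for the 6-month libraries, a stated age all went with the groups and cannot be told apart. The count for the LLC controls against the 6-month libraries also rested on single libraries: of 1888 calls in both directions, 758 were made without 6-month library 3, 997 without 6-month library 2, 1021 without LLC control 2 and 1047 without LLC control 4.

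The extracellular matrix differed between the control groups in nearly every member of its list. All 18 collagen and matrix genes tested were higher in the dexamethasone controls than in the 6-month libraries, 16 were higher in the LLC controls than in the 6-month libraries, and all 18 were lower in the LLC than in the dexamethasone controls. Of all genes tested, 51.4%, 15.4% and 36.6% were called in these directions. This list and those below were chosen with earlier results of these data known. The median relative differences of the 18 genes were 2.29, 1.33 and -1.16. The list summed to 160.7 to 250.8 TPM in the 6-month libraries, 1150 to 1999 TPM in the dexamethasone controls and 438.8 to 786.9 TPM in the LLC controls, without overlap. After leaving out 6-month library 3 with LLC control 1, or dexamethasone control 3 with LLC controls 2 and 4, the counts were 18, 14 and 18, and 18, 13 and 18.

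Postn, a matrix protein made by activated fibroblasts, was among the genes with the largest difference between the dexamethasone controls and the 6-month libraries. It was at 0.991, 0.607 and 0.556 TPM in the 6-month libraries, 93.9, 56.8, 126 and 66.6 in the dexamethasone controls and 13.5, 30.9, 6.89 and 22.2 in the LLC controls. No value of a group reached another group. Its relative differences were 5.32 (SE 0.38, adjusted p = 7.42e-07), 3.18 (SE 0.38, adjusted p = 0.000139) and -2.12 (SE 0.35, adjusted p = 0.000285). Where 3 differences are given, here and in the following, their order is dexamethasone controls against 6-month, LLC controls against 6-month, and LLC against dexamethasone controls.

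Col3a1, a fibrillar collagen, was at 18.3, 14.4 and 10.9 TPM in the 6-month libraries, 285, 189.8, 339 and 242 in the dexamethasone controls and 73.0, 109, 49.9 and 91.1 in the LLC controls. Its groups did not overlap either. Its relative differences were 3.81 (SE 0.25, adjusted p = 3.51e-07), 2.23 (SE 0.25, adjusted p = 6.35e-05) and -1.56 (SE 0.23, adjusted p = 0.000115). Col1a1, the main chain of type I collagen, had group means of 11.1 ± 4.22 (SD, n = 3), 159.6 ± 52.5 (SD, n = 4) and 65.5 ± 20.7 TPM (SD, n = 4). Those of the glycoprotein fibronectin (Fn1) were 3.93 ± 1.93, 53.3 ± 14.0 and 14.4 ± 6.05 TPM. Mmp13, a collagenase, was at 0, 0 and 0.128 TPM in the 6-month libraries, 3.51, 7.99, 12.3 and 15.3 in the dexamethasone controls and 10.1, 0.783, 3.98 and 15.2 in the LLC controls. It was called higher in the LLC controls than in the 6-month libraries (adjusted p = 0.0144), but not without 6-month library 3 (adjusted p = 0.0563). Col6a5, a collagen VI chain, was high in 1 group: it lay between 4.66 and 11.8 TPM in the dexamethasone controls and at or below 0.0788 TPM in the other 7 libraries.

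Fibroadipogenic progenitors, the stromal cells that make this matrix, were followed by 9 markers. Col1a1, Col1a2 and Col3a1 belong to this list and to the matrix list above, so the counts of these lists are not independent. All 9 were higher in the dexamethasone controls than in the 6-month libraries, where 51.4% of all genes were. In the LLC controls 5 were higher than in the 6-month libraries, against 15.4% of all genes. This count was 4 to 8 when single libraries were left out, and 4 without 6-month library 3 or LLC control 2. In the LLC controls 7 were lower than in the dexamethasone controls, against 36.6% of all genes. Pdgfra, the receptor that defines these cells, was at 2.08, 1.88 and 1.21 TPM in the 6-month libraries, 5.43, 4.32, 5.77 and 4.87 in the dexamethasone controls and 2.18, 3.39, 2.62 and 2.32 in the LLC controls. The relative difference of the dexamethasone controls from the 6-month libraries was 0.89 (SE 0.14, adjusted p = 1.6e-05). In bulk RNA, more cells of a type and more RNA in each of them cannot be told apart, for this and every list of markers.

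Macrophage markers had the same order of groups as the matrix. Their 9 genes summed to 59.6, 48.8 and 33.4 TPM in the 6-month libraries, 500.3, 364.2, 556.1 and 323.8 TPM in the dexamethasone controls, and 213.8, 384.3, 184.2 and 239.0 TPM in the LLC controls. The 6-month libraries lay below all others, and LLC control 2 lay within the range of the dexamethasone controls. Of the 9 genes, 8 were higher in the dexamethasone controls than in the 6-month libraries, where 51.4% of all genes were. In the LLC controls 8 were higher than in the 6-month libraries (15.4% of all genes). There 7 were lower than in the dexamethasone controls (36.6% of all genes). The median relative differences of the markers were 2.49, 1.51 and -0.89. Without 6-month library 3 and LLC control 1 the counts were 8, 7 and 7, and without dexamethasone control 3 and LLC controls 2 and 4 they were 8, 6 and 8. Cd163, a scavenger receptor of resident macrophages, passed the F test across the 3 groups (adjusted p = 0.0443) but was called in none of the pairwise comparisons: its values were 1.30, 0.523 and 0.313 TPM in the 6-month libraries, 1.05, 0.906, 1.49 and 1.33 in the dexamethasone controls and 1.34, 1.34, 1.36 and 1.25 in the LLC controls.

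Lyz2, the lysozyme of myeloid cells, was at 30.9, 25.2 and 19.7 TPM in the 6-month libraries, 262, 209, 315 and 171 in the dexamethasone controls and 137, 256, 113 and 153 in the LLC controls. LLC control 2 lay among the dexamethasone controls, and the relative differences were 2.90 (SE 0.26, adjusted p = 1.36e-06), 2.47 (SE 0.26, adjusted p = 3.32e-05) and -0.41 (SE 0.24, adjusted p = 0.0724). Ctss, a lysosomal protease of antigen-presenting cells, was at 3.34, 2.70 and 2.14 TPM in the 6-month libraries, 144, 83.9, 109 and 55.3 in the dexamethasone controls and 13.3, 44.5, 12.9 and 27.4 in the LLC controls. Its groups did not overlap. Its relative differences were 4.38 (SE 0.38, adjusted p = 1.46e-06), 2.47 (SE 0.38, adjusted p = 0.000915) and -1.90 (SE 0.36, adjusted p = 0.000561). The galectin Lgals3 and the pore-forming Mpeg1 had relative differences of 3.81 and 3.71 between the dexamethasone controls and the 6-month libraries.

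Another set of immune genes was high in the dexamethasone controls without reaching comparable levels in the LLC controls. Ccl8, a chemokine made by macrophages, was at 0.739, 0.633 and 0.111 TPM in the 6-month libraries, 91.7, 39.9, 54.1 and 31.0 in the dexamethasone controls and 1.86, 4.69, 2.31 and 2.39 in the LLC controls. Retnla, a marker of alternatively activated macrophages, was at 16.0, 10.9 and 4.38 TPM in the 6-month libraries, 255, 113, 183 and 115 in the dexamethasone controls and 7.86, 19.9, 9.79 and 25.1 in the LLC controls. Neither gene overlapped between the dexamethasone controls and the other groups. Their relative differences of the dexamethasone controls from the 6-month libraries were 4.83 (SE 0.32, adjusted p = 3.6e-07) and 3.66 (SE 0.43, adjusted p = 9.12e-06). For the LLC against the dexamethasone controls they were -3.64 (SE 0.29, adjusted p = 2.27e-06) and -3.23 (SE 0.40, adjusted p = 5.2e-05). Ear2, a ribonuclease of eosinophils, lay between 12.6 and 30.4 TPM in the dexamethasone controls and at or below 2.54 TPM elsewhere. Rnase2a, a related ribonuclease singled out after its values were seen, was the only gene at 1 TPM or more in every library of one group and at 0 in all others. Members of this ribonuclease family are near-identical, so their split is uncertain. The light chain constant region Igkc was at 0.355, 1.82 and 2.25 TPM in the 6-month libraries, 23.9, 6.61, 3.82 and 7.62 in the dexamethasone controls and 0.388, 1.37, 0.591 and 0.229 in the LLC controls. The 8 lymphocyte markers summed to at most 3.93 TPM in any library, and none reached the level required for testing.

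Vessel markers followed the dexamethasone controls with smaller differences. Of 11 endothelial genes, 10 were higher there than in the 6-month libraries, where 51.4% of all genes were. In the LLC controls 10 were lower than in the dexamethasone controls, against 36.6% of all genes. Of those 11, 4 were higher in the LLC controls than in the 6-month libraries (15.4% of all genes), and 0 without 6-month library 3. Pecam1, an adhesion molecule of endothelial junctions, was at 22.6, 22.0 and 19.5 TPM in the 6-month libraries, 46.8, 45.2, 50.3 and 47.4 in the dexamethasone controls and 33.9, 30.9, 23.4 and 23.2 in the LLC controls. Its relative differences were 0.84 (SE 0.12, adjusted p = 8.79e-06), 0.21 (SE 0.12, adjusted p = 0.0658) and -0.61 (SE 0.11, adjusted p = 0.000203). Of 9 markers of pericytes and smooth muscle, 7 were higher in the dexamethasone controls than in the 6-month libraries, led by smooth muscle actin Acta2 (23.8 ± 5.71, 84.3 ± 11.1 and 39.7 ± 12.3 TPM, SD over 3, 4 and 4 libraries). The share of all genes higher in that comparison was 51.4%. In the LLC controls 3 of the 9 markers were higher than in the 6-month libraries, where 15.4% of all genes were. Without 6-month library 3 and LLC control 1 this count was 0.

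All 5 erythroid genes were higher in the dexamethasone controls than in the 6-month libraries, 0 of 5 differed between the LLC controls and the 6-month libraries, and all 5 were lower in the LLC than in the dexamethasone controls. In these comparisons 51.4% of all genes were higher, 16.1% differed and 36.6% were lower, in turn. The erythroid genes summed to 526.1 to 645.3 TPM in the 6-month libraries, 1035 to 1299 TPM in the dexamethasone controls and 622.2 to 791.8 TPM in the LLC controls. No erythroid gene passed between the LLC controls and the 6-month libraries at an unadjusted p under 0.05 either (0 of 5, limma), or after rescaling (0 of 5). The globin copies Hba-a1 and Hba-a2 share most of their sequence, so the split of reads between them is uncertain.

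Schwann cell markers were higher in the dexamethasone controls than in the 6-month libraries in 7 of 8 cases, against 51.4% of all genes. In the LLC controls 1 of 8 was higher than in the 6-month libraries, near the 15.4% of all genes. It was 0 without 6-month library 3, LLC control 2 or LLC control 4. Satellite cell markers were low: Pax7, which marks the stem cells of muscle, was at 0.467 to 0.602 TPM in the 6-month libraries, 1.21 to 1.39 TPM in the dexamethasone controls and 0.633 to 0.897 TPM in the LLC controls. Of 4 such genes tested, 3 were higher in the dexamethasone controls than in the 6-month libraries, a comparison in which 51.4% of all genes were. Among the 4, Pax7 reached 1 TPM only in the dexamethasone controls and entered the test through them, so this count is a description.

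Tenocyte and adipocyte markers did not follow this order. Of 6 tenocyte genes, 2 were higher in the dexamethasone and 1 in the LLC controls than in the 6-month libraries (without 6-month library 3, 1 and 0). Over all genes tested the shares were 51.4% and 15.4%. Kera, a proteoglycan of tendon and cornea, was higher in the LLC than in the dexamethasone controls (1.11, SE 0.24, adjusted p = 0.00668). Adipocyte markers summed to 25.7, 61.2 and 7.83 TPM in the 6-month libraries, 20.2 to 41.2 TPM in the dexamethasone controls and 17.3 to 36.2 TPM in the LLC controls, and 0 of 3 genes tested were called in any comparison (limma). At an unadjusted p under 0.05, or after rescaling, the count was also 0. The adipocyte list has 6 genes, of which 3 could be tested. Of all genes tested, 54.8%, 16.1% and 42.8% were called in the 3 comparisons, in turn (56.6%, 14.9% and 48.8% after rescaling).

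**Figure D3:**
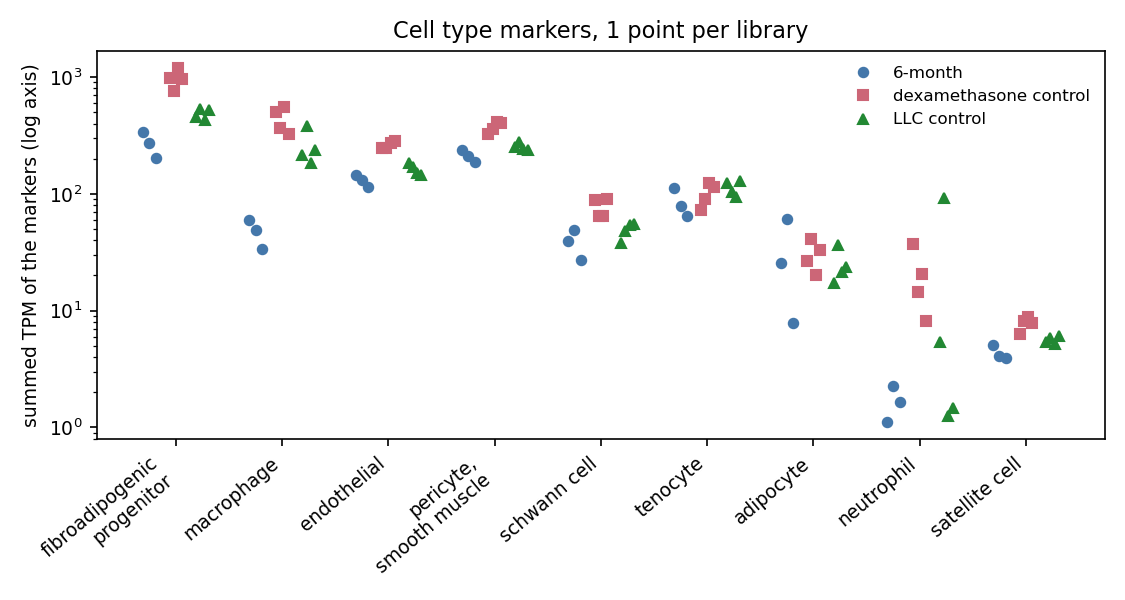
Summed TPM of cell type markers (log axis), with 1 point per library: circles for 6-month, squares for dexamethasone controls, triangles for LLC controls. Macrophage markers range from 33.4 TPM in a 6-month library to 556.1 TPM in a dexamethasone control, and 1 LLC control stands apart in neutrophil markers at 91.8 TPM.

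Interferon-stimulated genes separated the dexamethasone controls from both other groups. All 17 genes of the list were higher there than in the 6-month libraries and all 17 were lower in the LLC than in the dexamethasone controls, in each case also after rescaling, without 6-month library 3 and LLC control 1, and without dexamethasone control 3 and LLC controls 2 and 4. Between the LLC controls and the 6-month libraries 4 were higher, 1 after leaving out either of these sets, and 2 without 6-month library 2. The shares of all genes called in these comparisons and directions were, in turn, 51.4%, 36.6% and 15.4% (35.1%, 30.4% and 10.1% after rescaling). The median relative differences of the 17 genes were 1.26, 0.34 and -0.75. Summed, the list took 45.7 to 51.3 TPM in the 6-month libraries, 137.0 to 324.8 TPM in the dexamethasone controls and 67.7 to 94.4 TPM in the LLC controls, without overlap.

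Among them, Iigp1, an interferon-inducible GTPase of cell-autonomous defence, was at 3.03, 2.73 and 4.16 TPM in the 6-month libraries, 71.3, 38.1, 19.5 and 17.5 in the dexamethasone controls and 5.64, 5.25, 4.92 and 4.02 in the LLC controls. Gbp2, a guanylate-binding protein of the same defence, was at 3.45, 3.49 and 4.71 TPM in the 6-month libraries, 44.9, 22.6, 14.9 and 12.4 in the dexamethasone controls and 6.46, 6.61, 4.48 and 4.30 in the LLC controls. Dexamethasone control 1 was the highest library for both and control 4 the lowest of its group, still above every library of the other groups. The relative differences of the dexamethasone controls from the 6-month libraries were 2.63 (SE 0.36, adjusted p = 1.97e-05) and 1.89 (SE 0.32, adjusted p = 9.15e-05). Those of the LLC from the dexamethasone controls were -2.28 (SE 0.33, adjusted p = 0.000121) and -1.62 (SE 0.30, adjusted p = 0.000443). Irf7, the transcription factor that amplifies the type I response, was at 1.90, 1.36 and 1.43 TPM in the 6-month libraries, 11.7, 11.8, 5.11 and 12.0 in the dexamethasone controls and 4.89, 6.498, 4.36 and 4.55 in the LLC controls. It was also higher in the LLC controls than in the 6-month libraries (1.10, SE 0.23, adjusted p = 0.00412).

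Interferon-stimulated genes carry a response element, bound by the ISGF3 and IRF factors, with the core GAAANNGAAA on one strand and TTTCNNTTTC on the other. It is shown, in capitals, in the bases upstream of 4 members, with overlapping matches joined (RefSeq, GRCm38.p6). Of these, Isg15, Ifit3 and Irgm1 were chosen after their values were seen.
Isg15, chr4:156200819-156200998, minus strand: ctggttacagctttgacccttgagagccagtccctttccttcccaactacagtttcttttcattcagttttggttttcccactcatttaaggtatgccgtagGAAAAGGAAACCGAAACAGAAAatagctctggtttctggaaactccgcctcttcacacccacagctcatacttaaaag
Gbp2, chr3:142620483-142620662, plus strand: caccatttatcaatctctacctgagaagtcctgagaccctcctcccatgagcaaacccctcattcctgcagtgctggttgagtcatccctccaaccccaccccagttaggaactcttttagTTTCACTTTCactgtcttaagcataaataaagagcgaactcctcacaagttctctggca
Ifit3, chr19:34583349-34583528, plus strand: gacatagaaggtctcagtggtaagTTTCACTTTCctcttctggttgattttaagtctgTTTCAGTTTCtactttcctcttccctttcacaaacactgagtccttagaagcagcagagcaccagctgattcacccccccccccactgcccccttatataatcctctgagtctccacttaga
Irgm1, chr11:48871421-48871600, minus strand: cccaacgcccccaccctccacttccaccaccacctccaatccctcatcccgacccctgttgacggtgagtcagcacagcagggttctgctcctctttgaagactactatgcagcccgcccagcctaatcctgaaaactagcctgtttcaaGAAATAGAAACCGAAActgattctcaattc
The core lay within 250 bases upstream of the start in 11 of the 14 list members with an entry (78.6%). Over the 8865 tested genes with an entry the share was 3.08%, and over all 32851 entries 2.98%. The list was made of known interferon targets, so the shared motif describes these genes and does not measure binding. Isg15, a ubiquitin-like modifier, was at 3.00, 2.64 and 2.11 TPM in the 6-month libraries, 18.6, 10.4, 5.98 and 12.9 in the dexamethasone controls and 5.13, 5.99, 3.38 and 3.33 in the LLC controls. Ifit3, which binds foreign RNA with its relatives, lay between 2.64 and 3.39 TPM in the 6-month libraries, 7.35 and 22.4 TPM in the dexamethasone controls and 4.26 and 6.03 TPM in the LLC controls. The immunity-related GTPase Irgm1 lay between 4.44 and 4.80, 7.79 and 21.3, and 4.86 and 5.50 TPM.

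Imprinted genes of fetal growth followed the same order. All 12 tested were higher in the dexamethasone controls than in the 6-month libraries, and all 12 were lower in the LLC than in the dexamethasone controls. Without dexamethasone control 2, 3 or 4 these counts were 11 and 10. Between the LLC controls and the 6-month libraries 5 were higher, and 2 without 6-month library 3 and LLC control 1. Without dexamethasone control 3 and LLC controls 2 and 4 this count was 0 of 11 tested. The shares of all genes called in these comparisons and directions were, in turn, 51.4%, 36.6% and 15.4%. H19, a long noncoding RNA named here after its values were seen, was at 203, 218 and 283 TPM in the 6-month libraries, 1171, 843, 1095 and 769 in the dexamethasone controls and 474, 604, 242 and 329 in the LLC controls. Its neighbour Igf2, a fetal growth factor, was at 3.15, 3.15 and 2.68 TPM in the 6-month libraries, 16.9, 22.9, 38.3 and 22.2 in the dexamethasone controls and 4.01, 14.4, 2.82 and 7.01 in the LLC controls. Meg3, a noncoding RNA of another imprinted cluster, was at 0.915, 0.808 and 0.167 TPM in the 6-month libraries, 7.45, 7.48, 9.18 and 8.64 in the dexamethasone controls and 1.93, 2.07, 1.49 and 2.58 in the LLC controls. The dexamethasone controls overlapped with no other group in these 3 genes. Their relative differences from the 6-month libraries were 1.75 (SE 0.26, adjusted p = 2.52e-05), 2.37 (SE 0.38, adjusted p = 6.5e-05) and 2.24 (SE 0.17, adjusted p = 5.75e-07).

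Of 14 cell cycle genes, 8 passed the filter, and 6 of these were higher in the dexamethasone controls than in the 6-month libraries, where 51.4% of all genes were. This count was 4 without dexamethasone control 1, 3 or 4. Without dexamethasone control 3 and LLC controls 2 and 4, 6 genes passed the filter and 4 were higher. After rescaling 4 were higher and 1 lower, where 35.1% and 21.5% of all genes were. Between the LLC controls and the 6-month libraries 0 of 8 were called (limma), 0 after rescaling, and 2 at an unadjusted p under 0.05. Mki67, the proliferation marker Ki-67, was at 0.025 to 0.0642 TPM in the 6-month libraries, 1.20 to 2.04 TPM in the dexamethasone controls and 0.160 to 0.692 TPM in the LLC controls. It reached 1 TPM only in the dexamethasone controls and so entered the test through the group where it is high. The count of cell cycle genes is therefore a description. The 6-month values lie below the level of 3 reads on a gene 2 kb long, so no fold is given. Sln, the sarcolipin that inhibits the calcium pump, was at 2.32, 4.92 and 3.76 TPM in the 6-month libraries, 43.6, 35.3, 48.2 and 22.3 in the dexamethasone controls and 4.24, 8.97, 2.14 and 6.55 in the LLC controls. Its relative difference between the LLC and the dexamethasone controls was -2.48 (SE 0.32, adjusted p = 6.49e-05).

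Genes lower in the dexamethasone controls than in the 6-month libraries were fewer. Ostn, a peptide hormone of muscle and bone (osteocrin), was at 8.89, 16.6 and 14.3 TPM in the 6-month libraries, 3.78, 3.53, 3.66 and 4.63 in the dexamethasone controls and 7.45, 6.01, 5.85 and 5.17 in the LLC controls. Its relative differences were -1.79 (SE 0.17, adjusted p = 1.1e-05), -1.11 (SE 0.17, adjusted p = 0.00305) and 0.69 (SE 0.16, adjusted p = 0.0153). Chac1, a glutathione-degrading enzyme of the amino acid stress response, was at 90.3, 41.5 and 80.2 TPM in the 6-month libraries, 13.2, 22.0, 26.4 and 22.0 in the dexamethasone controls and 36.8, 38.5, 70.8 and 83.9 in the LLC controls. Its relative differences were -1.96 (SE 0.33, adjusted p = 0.000775) for the dexamethasone controls against the 6-month libraries and 1.52 (SE 0.30, adjusted p = 0.00285) for the LLC against the dexamethasone controls. Ces1d, a lipid carboxylesterase, was at 24.1, 26.5 and 32.3 TPM in the 6-month libraries, 7.84, 10.8, 9.12 and 17.7 in the dexamethasone controls and 10.5, 15.7, 16.6 and 18.6 in the LLC controls. It was called lower in both other groups than in the 6-month libraries, but for the LLC controls the call (-0.96, SE 0.23, adjusted p = 0.0305) was lost without 6-month library 2 or 3 or without LLC control 1 or 2 (adjusted p of 0.0706, 0.135, 0.0686 and 0.0575).

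For genes of fuel use the counts depended on the scale. Of 19 genes of fatty acid oxidation, 8 were lower in the dexamethasone controls than in the 6-month libraries and 0 higher (15 lower after rescaling), and of 18 genes of glycolysis 1 was lower and 3 were higher (10 lower and 1 higher after rescaling). Leaving out single libraries moved the first of these counts between 3 and 12, with the lowest without 6-month library 2 or 3 or dexamethasone control 3. The 3 glycolysis genes became 1 without 6-month library 3. In the same comparison 3.42% of all genes were lower and 51.4% higher (21.5% and 35.1% after rescaling). Acadm, the medium-chain acyl-CoA dehydrogenase, was at 157, 172 and 181 TPM in the 6-month libraries, 120.0, 125, 109 and 137 in the dexamethasone controls and 173, 133, 146 and 143 in the LLC controls. It had a relative difference of -0.75 (SE 0.10, adjusted p = 0.00158) between the dexamethasone controls and the 6-month libraries, which did not overlap. Pfkm, the muscle phosphofructokinase, was at 2622, 2317 and 2199 TPM in the 6-month libraries, 1961, 2023, 1959 and 2354 in the dexamethasone controls and 3106, 2450.1, 2660.4 and 2607 in the LLC controls. It was higher in the LLC than in the dexamethasone controls (0.54, SE 0.09, adjusted p = 0.00469).

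The same held for the fast contractile genes. Of 15 genes, 3 were higher and 5 lower in the dexamethasone controls than in the 6-month libraries (0 higher and 9 lower after rescaling). These counts fell to 1 higher without 6-month library 3 and to 1 lower without 6-month library 1 or dexamethasone control 1. Over all genes 51.4% were higher and 3.42% lower (35.1% and 21.5% after rescaling). Of the same 15, 6 were higher and 1 lower in the LLC than in the dexamethasone controls (8 and 0 after rescaling). There the shares of all genes were 6.19% and 36.6% (18.5% and 30.4% after rescaling). Tnnt3, fast troponin T, had group means of 18482 ± 1440.0 (SD, n = 3), 15738 ± 953 (SD, n = 4) and 22286 ± 1353 TPM (SD, n = 4). The LLC controls were above the dexamethasone controls by 0.66 (SE 0.08, adjusted p = 0.000235). Myh4 and Myh1 were called in none of the comparisons on either scale. Myh2 was called lower in the LLC than in the dexamethasone controls on the TPM scale (-0.84, SE 0.37, adjusted p = 0.044), but not after rescaling (adjusted p = 0.0824) and not without any one of 6-month library 2, dexamethasone controls 2, 3 and 4, and LLC controls 2, 3 and 4 (adjusted p between 0.0531 and 0.122). Slow contractile genes were higher in the dexamethasone controls than in the 6-month libraries in 8 of 13 cases (6 after rescaling), near the 51.4% and 35.1% of all genes. Atp2a2, the slow calcium pump, was at 7.20, 6.89 and 6.25 TPM in the 6-month libraries, 19.5, 21.9, 34.5 and 23.0 in the dexamethasone controls and 9.41, 17.0, 14.0 and 10.9 in the LLC controls. Its relative difference of the dexamethasone controls from the 6-month libraries was 1.41 (SE 0.19, adjusted p = 1.19e-05).

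A small set of genes set the LLC controls apart from both other groups. The mitochondrial gene mt-Nd6, a subunit of complex I, was at 337, 459 and 322 TPM in the 6-month libraries, 745, 557, 556 and 603 in the dexamethasone controls and 9292, 10687, 11431 and 10635 in the LLC controls. The LLC controls were far above the others without overlap. Their relative differences were 4.69 (SE 0.13, adjusted p = 9.01e-11) from the 6-month libraries and 4.26 (SE 0.12, adjusted p = 1.37e-10) from the dexamethasone controls. It lies on chromosome M at bases 13552 to 14070 of mm10 and is the only 1 of the 13 protein genes of the mitochondrial genome on the minus strand. It overlaps mt-Nd5 on the plus strand by 14 bases. Of the 12 plus-strand genes, none was called higher in the LLC controls than in either group. The gene mt-Atp8, a short subunit of ATP synthase, was lower than in both, at 25222, 28914 and 22159 TPM in the 6-month libraries, 34154, 38246, 34814 and 33695 in the dexamethasone controls and 10849.7, 13992, 13680.0 and 13392 in the LLC controls. It ends at base 7969, and mt-Atp6 on the same strand begins at base 7927. The gene mt-Nd3 was also lower than in both, with group means of 21060, 20484 and 15777 TPM. Lower than in the dexamethasone controls only were mt-Nd4, mt-Nd4l and mt-Nd5.

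Chrna10, an acetylcholine receptor subunit known from hair cells of the ear, was listed at 0 in every 6-month library and was at 0.103, 0.0679, 0.0610 and 0.130 TPM in the dexamethasone controls and 8.01, 6.31, 7.76 and 8.18 TPM in the LLC controls. In the annotation 1025 of its exon bases (39.0%) lie opposite exons of Art1, a muscle gene at a mean of 370.0 TPM. Sco2, a copper chaperone of cytochrome oxidase with 66.2% of its exon bases opposite Ncaph2, was lower in the LLC controls than in both other groups (-1.36, SE 0.13, adjusted p = 4.74e-05, and -1.38, SE 0.12, adjusted p = 1.73e-06). Mrps25, a mitochondrial ribosomal protein with 69.8% opposite Nr2c2, was higher (0.60, SE 0.08, adjusted p = 9.6e-05, and 0.94, SE 0.08, adjusted p = 1.32e-05).

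This was followed over all genes matched to the annotation by a rule chosen after these values were seen, which Chrna10 and Mrps25 do not meet (39.0% of exon bases, and a partner at 5.54 TPM). Of 32 tested genes with at least 50% of their exon bases opposite exons of a gene at 10 TPM or more, 13 (40.6%) were higher and 4 (12.5%) lower in the LLC controls than in the 6-month libraries, against 15.4% and 0.785% of the 8152 genes with no exon overlap and 14.9% and 0.633% of the 3160 genes with other overlap. For the LLC against the dexamethasone controls the shares were 25% higher and 31.2% lower, against 5.47% and 38.2% without overlap. Among the genes higher in both comparisons, A730061H03Rik, Gm26694, Gm17201, Gm12953 and Gm9747 were under 1 TPM in every 6-month library and dexamethasone control. They passed the filter only through the LLC controls, so these shares are descriptions and lend no support. For the dexamethasone controls against the 6-month libraries the shares were 43.8% higher and 0% lower, against 52.9% and 3.46%. The libraries were made with a stranded kit, but the labels do not give the strand setting of the counting, and without it reads of a gene and of its antisense partner cannot be told apart. Its part in these differences was not tested. Genes without opposite-strand exons also belonged to this set: Ovol1, an epithelial transcription factor, lay between 6.90 and 9.002 TPM in the LLC controls and at or below 0.118 TPM elsewhere.

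**Figure D4:**
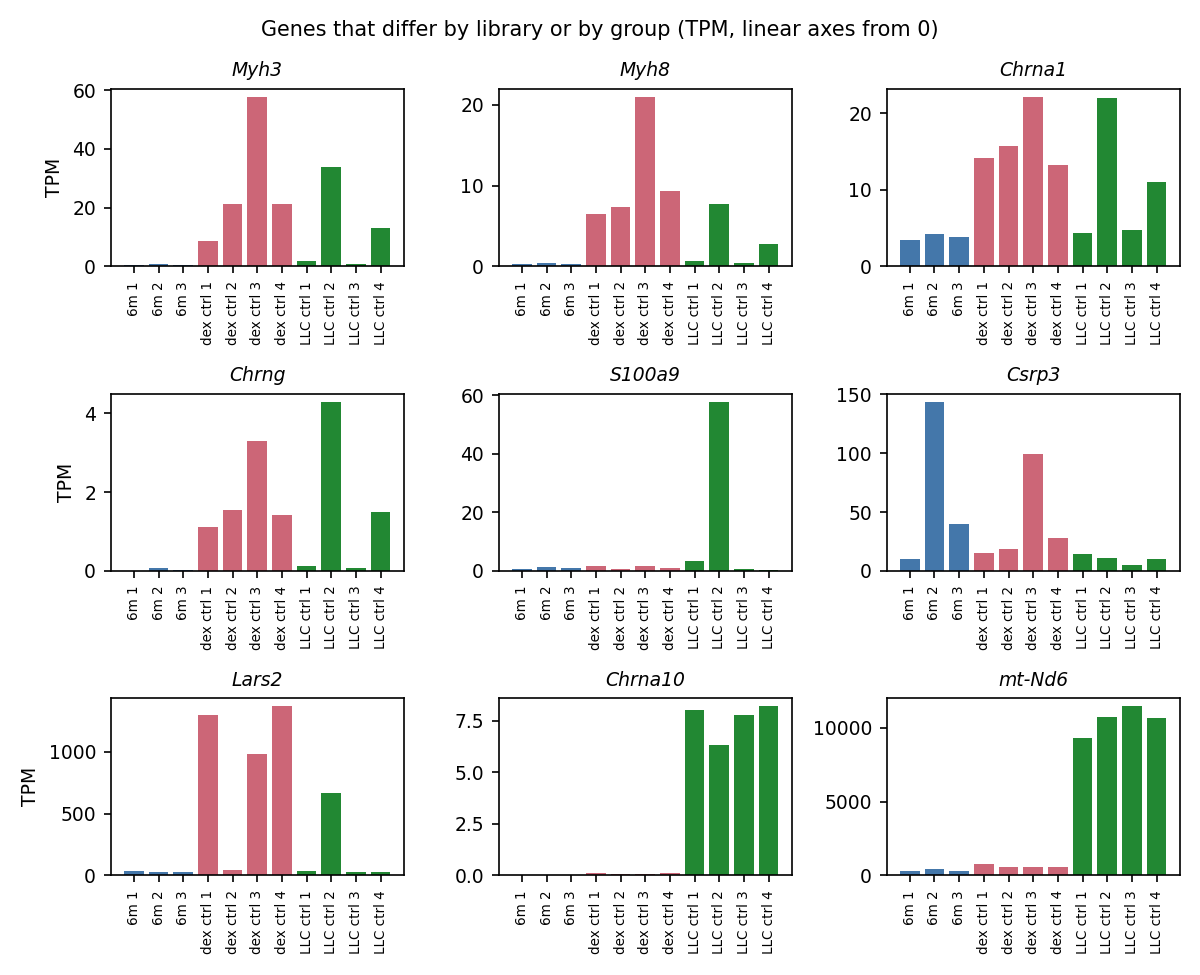
TPM of 9 genes in each library, on linear axes from 0. Myh3, Myh8, Chrna1 and Chrng are high in the dexamethasone controls and in LLC controls 2 and 4. S100a9 is high in LLC control 2 only, Csrp3 and Lars2 in a few libraries, and Chrna10 and mt-Nd6 in all 4 LLC controls.

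Spread within groups was small for most genes. The median gene had a pooled within-group SD of 0.140 on the log2(TPM + 1) scale and an SD of its 3 group means of 0.183, and the second exceeded the first in 7593 genes (64.9%). Spearman's rho over the 11706 genes was 0.980 to 0.992 for the 15 pairs of libraries within a group and 0.922 to 0.982 for the 40 pairs between groups. Each of the 11 libraries was most like another of its own group. These correlations are descriptions, since all libraries share the same genes and the same abundance ranking.

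**Figure D5:**
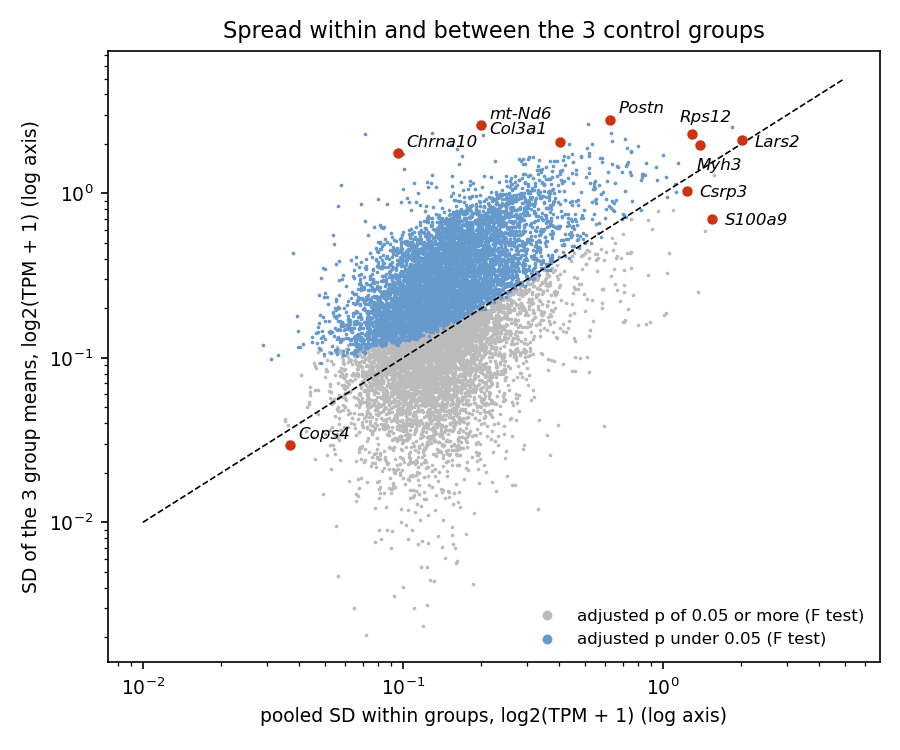
SD of the 3 group means against the pooled SD within groups for 11706 genes, both on log2(TPM + 1) and log axes; blue points passed the F test, grey did not, and the dashed line marks equal values. Chrna10 and mt-Nd6 vary between groups far more than within them, S100a9 and Csrp3 more within than between, and Cops4 little in either way.

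The steadiest genes on the TPM scale included Cops4, a subunit of the COP9 signalosome. It was at 28.6, 26.9 and 28.2 TPM in the 6-month libraries, 26.9, 26.3, 27.0 and 26.8 in the dexamethasone controls and 28.7, 27.7, 26.7 and 27.0 in the LLC controls. Its groups overlapped and it did not pass the F test (adjusted p = 0.693). Chmp1a, an ESCRT protein, Vdac2, a channel of the outer mitochondrial membrane, and Sar1a, a GTPase of the secretory pathway, were as steady, at 30.3 to 33.6, 108 to 123 and 80.9 to 90.5 TPM. After rescaling, however, the F test called Cops4, Chmp1a, Vdac2 and Sar1a (adjusted p of 0.00717, 0.0193, 0.0318 and 0.0151).

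Of 26 genes often used as references, 12 differed across the groups (14 after rescaling), where 56.6% of all genes tested did. Actb, cytoplasmic actin, was at 103, 81.9 and 74.6 TPM in the 6-month libraries, 214, 176, 226 and 216 in the dexamethasone controls and 112, 116, 95.9 and 114 in the LLC controls. B2m, the light chain of MHC class I, was at 108, 105 and 127 TPM in the 6-month libraries, 542, 385, 432 and 365 in the dexamethasone controls and 197, 249.7, 166 and 181 in the LLC controls. The dexamethasone controls lay above all other libraries in both, with relative differences from the 6-month libraries of 0.98 (SE 0.12, adjusted p = 2.87e-06) and 1.62 (SE 0.15, adjusted p = 1.27e-06). Gapdh (2465 to 3442 TPM), the ribosomal stalk protein Rplp0 (603 to 727 TPM) and Psmb4, a proteasome subunit (130 to 161 TPM), did not pass the F test on the TPM scale (adjusted p of 0.0894, 0.641 and 0.893). After rescaling, Gapdh did (0.0226), while Rplp0 and Psmb4 did not (0.37 and 0.068).

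Of 16 clock genes tested, 3 passed the F test (7 after rescaling), where 56.6% of all genes tested did (60.5% after rescaling). Nr1d2, a repressor of the clock, was at 43.9, 42.6 and 34.8 TPM in the 6-month libraries, 46.0, 55.0, 54.1 and 62.4 in the dexamethasone controls and 38.3, 34.8, 39.1 and 39.5 in the LLC controls. It was higher in the dexamethasone controls than in the 6-month libraries on the TPM scale (0.14, SE 0.11, adjusted p = 0.00511) but not after rescaling (adjusted p = 0.101), and lower in the LLC than in the dexamethasone controls (-0.35, SE 0.10, adjusted p = 0.00136). Per1, a repressor that responds to glucocorticoids, lay between 4.14 and 19.3 TPM in the dexamethasone controls alone, and Dbp, an output of the clock, between 39.97 and 95.2 TPM there. Neither passed the F test (adjusted p of 0.508 and 0.151), and the time of day of collection is not in the labels.

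Genes known from immature or denervated fibres were among the most variable within groups. Myh3, the embryonic myosin heavy chain, was at 0.343, 0.917 and 0.367 TPM in the 6-month libraries, 8.73, 21.2, 57.5 and 21.4 in the dexamethasone controls and 1.78, 33.9, 0.811 and 13.3 in the LLC controls. It was high in all 4 dexamethasone controls and in LLC controls 2 and 4, and low in the 6-month libraries and LLC controls 1 and 3. The perinatal Myh8, the atrial and embryonic light chain Myl4 and the fusion factor Tmem8c (myomaker) followed the same libraries, with 2.76 to 20.9, 12.9 to 33.2 and 5.15 to 18.9 TPM in the first set and 0.273 to 0.641, 2.46 to 2.91 and 0.0754 to 0.928 TPM in the second. Only the difference between the dexamethasone controls and the 6-month libraries was called for Myh3 (3.64, SE 0.84, adjusted p = 0.00158). For the LLC controls the adjusted p was 0.0883 against the 6-month libraries and 0.0952 against the dexamethasone controls.

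The receptor genes Chrna1 and Chrng of the neuromuscular junction shared this split. Chrna1, the alpha subunit of the muscle acetylcholine receptor, was at 3.47, 4.29 and 3.90 TPM in the 6-month libraries, 14.2, 15.7, 22.1 and 13.3 in the dexamethasone controls and 4.40, 22.0, 4.77 and 10.97 in the LLC controls. Chrng, the gamma subunit of fetal and denervated muscle, was at 0, 0.0777 and 0.0274 TPM in the 6-month libraries, 1.12, 1.53, 3.30 and 1.43 in the dexamethasone controls and 0.129, 4.28, 0.0755 and 1.49 in the LLC controls. LLC control 2 nearly reached the highest dexamethasone control in the first and lay above it in the second. Of 11 junction genes, 8 were higher in the dexamethasone controls than in the 6-month libraries (6 after rescaling, 5 without 6-month library 3), where 51.4% of all genes were (35.1% after rescaling), with a relative difference of 1.52 (SE 0.39, adjusted p = 0.00164) for Chrna1. Slow troponin I (Tnni1) and the cell cycle inhibitor Cdkn1a were also high in these libraries. Tnni1 was at 0.874, 1.42 and 2.04 TPM in the 6-month libraries, 8.11, 12.2, 26.6 and 10.97 in the dexamethasone controls and 1.72, 18.2, 4.89 and 7.83 in the LLC controls. Cdkn1a was at 10.1, 8.05 and 4.90 TPM in the 6-month libraries, 18.98, 28.9, 32.5 and 20.03 in the dexamethasone controls and 7.495, 25.7, 5.78 and 14.2 in the LLC controls.

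Other genes stood out in single libraries. Csrp3, a stretch sensor of the Z-disc, was at 10.1, 144 and 40.3 TPM in the 6-month libraries, 15.02, 19.01, 99.4 and 28.4 in the dexamethasone controls and 14.8, 10.6, 4.71 and 10.04 in the LLC controls. The related stress sensor Ankrd2 was at 66.1, 316 and 138 TPM in the 6-month libraries, 79.7, 69.1, 297 and 105 in the dexamethasone controls and 99.2, 45.9, 42.1 and 53.1 in the LLC controls. The 6-month library 2 and dexamethasone control 3 were highest for both, and neither gene passed the F test (adjusted p of 0.0655 and 0.0892). S100a9, a calcium-binding protein of neutrophils, was at 57.7 TPM in LLC control 2 and at or below 3.32 TPM in the other 10 libraries, and S100a8 was at 29.3 TPM there and at or below 4.46 TPM elsewhere. The neutrophil gene Retnlg had another pattern: it was at 0.104, 0 and 0.0937 TPM in the 6-month libraries, 29.3, 11.3, 14.8 and 4.92 in the dexamethasone controls and 0.475, 3.52, 0.194 and 0.468 in the LLC controls, highest in the dexamethasone controls.

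Lars2, a mitochondrial leucyl-tRNA synthetase, was at 35.0, 26.1 and 31.0 TPM in the 6-month libraries, 1298, 42.9, 987 and 1369 in the dexamethasone controls and 39.1, 671, 26.2 and 26.3 in the LLC controls. Dexamethasone controls 1, 3 and 4 and LLC control 2 were high, and the other 7 libraries low. Its call between the dexamethasone controls and the 6-month libraries (3.78, SE 1.21, adjusted p = 0.0122) rests on 3 of 4 controls. The ribosomal RNA copy Rn18s-rs5 was at 0.0882, 0 and 0 TPM in the 6-month libraries, 0.723, 0.0478, 0.429 and 0.631 in the dexamethasone controls and 3.41, 23.7, 3.91 and 5.18 in the LLC controls. It was highest in the same LLC control. Among the dexamethasone controls it was lowest in library 2, the one with low Lars2. The ribosomal protein gene Rps12 was at 109, 168 and 98.7 TPM in the 6-month libraries, 213, 228, 249 and 241 in the dexamethasone controls and 53.8, 1.17, 23.5 and 4.78 in the LLC controls. Its LLC controls spanned 1.17 to 53.8 TPM, and the call against the 6-month libraries (-3.57, SE 0.78, adjusted p = 0.0129) was lost without 6-month library 2, where the adjusted p rounds to 0.05. Ribosomal protein genes and Rn18s-rs5 have many near-identical copies in the genome, so the assignment of reads to them is uncertain.

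Stress-responsive genes were led by other libraries. Mt2, a metallothionein induced by metals and glucocorticoids, was at 5.32, 4.56 and 3.28 TPM in the 6-month libraries, 33.4, 47.1, 35.1 and 21.5 in the dexamethasone controls and 109, 20.4, 9.19 and 19.6 in the LLC controls. Atf3, a transcription factor of acute stress, was at 3.10, 25.3 and 7.64 TPM in the 6-month libraries, 8.42, 4.04, 5.28 and 3.59 in the dexamethasone controls and 18.3, 3.85, 1.70 and 2.92 in the LLC controls. LLC control 1 was highest for Mt2, and 6-month library 2 and LLC control 1 for Atf3, which did not pass the F test (adjusted p = 0.5). Mt2 was higher in both other groups than in the 6-month libraries (2.40, SE 0.57, adjusted p = 0.00152, and 2.18, SE 0.57, adjusted p = 0.0184), but for the LLC controls not without 6-month library 2 or 3 (adjusted p of 0.0515 and 0.0875). Of 15 glucocorticoid and fasting response genes, 6 were higher and 1 lower in the dexamethasone controls than in the 6-month libraries (5 and 5 after rescaling). There 51.4% and 3.42% of all genes were (35.1% and 21.5% after rescaling). In the LLC controls 2 were higher and 1 lower than in the 6-month libraries, where 15.4% and 0.777% of all genes were. Without 6-month library 2 or 3, 0 were higher, and without 6-month library 2, 0 were lower. Of 15 immediate-early genes, 10 were higher in the dexamethasone controls than in the 6-month libraries (4 after rescaling), where 51.4% of all genes were (35.1% after rescaling). In the LLC controls 6 were higher (5 after rescaling, 2 without 6-month library 3), where 15.4% of all genes were (10.1% after rescaling). Egr1, a transcription factor induced within minutes of a stimulus, was at 0.814, 1.65 and 1.28 TPM in the 6-month libraries, 3.66, 3.02, 3.90 and 3.26 in the dexamethasone controls and 5.68, 4.21, 3.16 and 3.02 in the LLC controls. It was higher than in the 6-month libraries in the dexamethasone controls (0.72, SE 0.17, adjusted p = 0.000301) and in the LLC controls (1.01, SE 0.17, adjusted p = 0.00104). Of 14 heat shock genes, 3 were higher and 1 lower in the dexamethasone controls than in the 6-month libraries (0 and 5 after rescaling). Without 6-month library 2 or 3 or dexamethasone control 3, 0 were higher. The shares of all genes there were 51.4% and 3.42% (35.1% and 21.5% after rescaling). Hspb7, a small heat shock protein of muscle, was lower in the LLC controls than in the 6-month libraries (-1.25, SE 0.31, adjusted p = 0.0305). It was at 285, 670.1 and 344 TPM in the 6-month libraries, 294, 254, 460.0 and 245 in the dexamethasone controls and 292, 158, 134 and 195 in the LLC controls. Its groups overlapped, 6-month library 2 was highest, and the call was lost without 6-month library 2 or 3 or LLC control 2, 3 or 4 (adjusted p between 0.0596 and 0.119).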

How the data were processed

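RNA of tibialis anterior was sequenced with a stranded TruSeq mRNA kit on a NovaSeq instrument, per the labels' protocols, and replicates are labelled as biological. The authors deposited 1 table of TPM values per gene. The build was mm10, per the submitters' processing notes; the labels and notes name no aligner, counter, annotation or strand setting that could be tied to this table. All 11 columns used sum to 1000000. Of 47643 genes, 45134 matched GENCODE M21 identifiers.

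Genes with at least 1 TPM in 3 or more of 11 libraries (11706) were tested on log2(TPM + 1) with limma 3.58.1 (R 4.3.3; trend, moderated F and 3 pairwise contrasts, Benjamini-Hochberg adjusted p under 0.05), after checking the script on simulated data. Relative differences subtract the median over tested genes of the same contrast. "Rescaled" refers to the same fit after median-of-ratios scaling. Whole reads were recovered for 14470 genes (tolerance 0.05) and used for depth only. Other alternatives were pseudocounts, filters, left-out libraries and a replicate block. Myosin shares were tested by exact permutation (scipy 1.17.1).

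Named genes were the largest called differences per contrast and direction, the steadiest and most variable genes, the most abundant, and list members; others are said to be chosen after their values were seen. The members and lists were chosen with earlier results of these data known. Some genes that this rule names are not reported here.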

Additional observations from a re-analysis of the deposited data

Results flagged for a closer look

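In 27 of the 232 groups of 4 control libraries that were examined (11.6%), 1 library stood apart from the other 3 by Dixon's 95% criterion for its gap. Chance alone flags about 1 in 20, but many of these genes were named for their spread within groups and several sums and shares overlap, so the count is a description and is not set against that share. LLC control 1 accounts for 9 of the 27, LLC control 2 for 7, LLC control 3 and dexamethasone control 3 for 4 each, dexamethasone control 4 for 2 and dexamethasone control 1 for 1.

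LLC control 1, the library with the lowest mitochondrial share and the lowest Myh4 share of its group, was high in the share of TPM from glycolysis (4.03%, others 3.45% to 3.49%), from the nuclear respiratory chain (4.78%, others 3.59% to 3.77%) and from fatty acid oxidation (0.400%, others 0.279% to 0.287%). It was also high in Myh1 at 4703 TPM (2547 to 2683 TPM in the others), the glycolytic enzyme Pkm at 2815 TPM (2419 to 2463 TPM), Mt2 at 109 TPM (9.19 to 20.4 TPM) and Atf3 at 18.3 TPM (1.70 to 3.85 TPM). It was low in mt-Atp6 at 39751 TPM (51215 to 53061 TPM) and mt-Co3 at 56479 TPM (70677 to 71535 TPM).

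LLC control 2 was high in the summed neutrophil markers (91.8 TPM, others 1.24 to 5.40 TPM), in S100a9 at 57.7 TPM (0.311 to 3.32 TPM), Retnlg at 3.52 TPM (0.194 to 0.475 TPM) and the plasma protein haptoglobin, Hp, at 5.95 TPM (2.18 to 2.63 TPM). The same library was high in Lars2 at 671 TPM (26.2 to 39.1 TPM), in Rn18s-rs5 at 23.7 TPM (3.41 to 5.18 TPM) and in Mybph, a myosin-binding protein, at 59.0 TPM (7.63 to 15.8 TPM).

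LLC control 3 was low in the share of ribosomal proteins (1.95%, others 2.13% to 2.16%) and high in the Myh7 share of heavy chain TPM (0.0732%, others 0.00338% to 0.00430%), in Inmt, a methyltransferase, at 6.24 TPM (3.37 to 3.74 TPM) and in mt-Nd2 at 28093 TPM (24519 to 25106 TPM). Dexamethasone control 3 was high in Ankrd2 at 297 TPM (69.1 to 105 TPM), Csrp3 at 99.4 TPM (15.02 to 28.4 TPM) and Rps27rt, a copy of a ribosomal protein gene, at 72.9 TPM (49.0 to 51.8 TPM), and low in the summed epidermis markers (1.47 TPM, others 1.83 to 1.90 TPM). Dexamethasone control 4 was high in Gapdh at 2837 TPM (2629 to 2664 TPM) and Pfkm at 2354 TPM (1959 to 2023 TPM), and dexamethasone control 1 in Nmrk2, a nicotinamide riboside kinase, at 143 TPM (99.6 to 106 TPM).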

How the results depend on the processing

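None of the 60 called differences picked as the largest per comparison and direction changed sign under an alternative. The signs of smaller called differences were not checked. After rescaling by median of ratios, the balance of higher and lower genes between dexamethasone controls and 6-month libraries turned in 4 lists. Heat shock genes went from 3 and 1 to 0 and 5, and glycolysis from 3 and 1 to 1 and 10. Clock genes went from 2 and 0 to 0 and 5, and reference genes from 11 and 1 to 7 and 10. These lists held, in turn, 14, 18, 16 and 26 tested genes. Over all genes the shares moved the same way, from 51.4% higher and 3.42% lower to 35.1% and 21.5%. Of genes that differed across the 3 groups (6620), the count was 3452 with a filter of 5 TPM, 4386 without dexamethasone control 3 and LLC controls 2 and 4, and 1334 with a difference of at least 1 (log2). Dexamethasone controls against 6-month libraries gave 3239 calls with the 5 TPM filter and 1229 at 1 log2. LLC controls against 6-month libraries gave 1011 with the 5 TPM filter, 742 without 6-month library 3 and LLC control 1, 293 without dexamethasone control 3 and LLC controls 2 and 4, 537 at an adjusted p under 0.01, 228 at 1 log2, and 758 to 2429 when leaving out 1 library at a time. LLC against dexamethasone controls gave 2487 with the 5 TPM filter, 2728 without dexamethasone control 3 and LLC controls 2 and 4, 3320 at an adjusted p under 0.01 and 396 at 1 log2. The filter and the left-out sets test fewer genes or libraries by construction. The cause of the other changes was not tested. The median within-group SD of 0.140 became 0.173 with a pseudocount of 0.1, 0.106 without a filter and 0.117 after rescaling by median of ratios. The median SD of group means of 0.183 became 0.218 and 0.200 with pseudocounts of 0.1 and 0.5, 0.113 without a filter, 0.152 with the 5 TPM filter, 0.206 without mitochondrial genes, and 0.166 to 0.205 when leaving out 1 library at a time. Library numbers are shared between groups but do not pair them: over 10 same-numbered pairs the correlation of deviations was -0.362 to 0.133, above 0.1 in 1. With the number as a replicate block, the counts were 5581 across groups, 5653 and 4399 for the comparisons with the dexamethasone controls, and 1019 for LLC controls against 6-month libraries. Restricting the calls to the 8152 genes without exons on the opposite strand left 4691, 4596, 1317 and 3558. The sets of left-out libraries and this last restriction were chosen after seeing the data. Depth limits low genes: values under about 0.1 TPM rest on few reads, fewest in the 6-month libraries.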
